A study of Arabidopsis thaliana with 12 samples.

Results

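Of the genes on this Arabidopsis array that serve the chloroplast NADH dehydrogenase-like (NDH) complex, 5 are described here, each with a probe of its own. They are NdhS (AT4G23890), NdhN (AT5G58260), CRR41 (AT1G51100), CRR21 (AT5G55740) and PIFI (AT3G15840). The 5 were chosen by probe and gene name, among 692 probes with 1 gene and 3439 probes in all. Earlier results of these data were known when they were chosen. Cpn60beta4 and OTP85, which also serve the complex, had probes of their own too and are given further below. Transcript levels were measured in total RNA of wild-type Arabidopsis thaliana (ecotype Columbia 0). The 6 control samples came from plants kept in normal light of 80 µE. The 6 recovered samples came from plants that received 1000 µE for 1 h and then returned to 80 µE for 48 h. No label gives the plant part, the plant age or a control harvested at the later time, so light stress cannot be told apart from age or time of harvest. Whether the 6 samples of each group are separate plants is not stated, so the spread behind the p-values may be a technical one.

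The NDH complex sits in the thylakoid membrane, accepts electrons from ferredoxin and passes them to plastoquinone. It thereby carries part of the cyclic electron flow around photosystem I and takes part in chlororespiration. Its subunits are encoded partly in the plastid and partly in the nucleus, and further nuclear factors edit the plastid transcripts or assemble the complex. NdhS and NdhN are structural subunits: NdhS forms part of the ferredoxin-binding site, and NdhN belongs to the stromal arm. CRR41 is an assembly factor of that arm. CRR21 is a pentatricopeptide repeat protein needed for an RNA editing site in the plastid transcript ndhD. PIFI is a chloroplast protein needed for the rise in chlorophyll fluorescence after illumination, a signal by which NDH activity is commonly followed. The label of the gene group thus covers 2 subunits and 3 factors that serve the complex.

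None of the 5 genes passed the test between control and recovered samples. The largest difference was that of CRR21, whose mean was 2.08-fold higher in the recovered samples (95% interval 1.27 to 3.41, limma adjusted p = 0.117). The means of CRR41, NdhN and NdhS were 1.38-fold, 1.29-fold and 1.13-fold higher, and that of PIFI was 1.18-fold lower. Over all 3177 tested probes limma called 2.17% at an adjusted p under 0.05, and read against that share 0 of 5 is no result particular to these genes. The median log2 fold change was 0.37 for the 5 genes and 0.00 for all tested probes, and 4 of 5 genes lay above 0 against 50.2% of all tested probes. The median of the 5 genes moved with single samples. It was 0.17 without control 1, 0.18 without control 2, 0.22 without control 3, 0.18 without recovered 5, 0.20 without recovered 6 and 0.60 without control 5, and 0.19 or 0.16 without sample 3, or samples 3 and 4, of both groups. It was 0.17 with array weights. On the deposited scaling it was 0.93, against 0.47 for all tested probes, and 3 of 5 genes lay above that value.

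The deposited intensities have a linear scale with a maximum of 100 in 11 of 12 samples, and their sum ran from 2874 to 3406 per sample. The median intensity was 0.426 or higher in recovered 1, 2, 5 and 6 and 0.284 or lower in the other samples, recovered 3 and 4 included. Values were therefore quantile-normalised before log2 was taken, with a floor at -4.95 on the log2 scale. This removes any shift that all probes share between the groups, also a real one. Whether the higher medians of recovered 1, 2, 5 and 6 came from the treatment was not tested. In both groups, samples with neighbouring replicate numbers (1 and 2, 3 and 4, 5 and 6, called sets here) resembled each other. Across probes (genes are no independent replicates) Pearson's r was 0.854 to 0.939 within a set and 0.650 to 0.794 for samples of the same group but other sets, and for 12 of 12 samples the closest sample was the other one of its set. If the samples of a set are repeat readings, SEs and p-values from 6 samples per group are too small. With sets averaged to 3 values per group, the SE of the log2 fold change was 0.42 for NdhS and 0.81 for NdhN. It was 0.55 for CRR41, 0.44 for CRR21 and 0.76 for PIFI, and the lowest limma adjusted p of the 5 genes was 0.837.

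NdhS had deposited intensities of 3.97, 5.21 and 7.36 in the controls (lowest, median and highest) and of 4.09, 5.87 and 8.32 in the recovered samples. After normalisation its log2 intensity was 2.11, 2.33 and 2.79 in the controls and 2.13, 2.60 and 2.95 in the recovered samples. The groups overlapped almost throughout. Means were 2.36 ± 0.26 (SD, n = 6) and 2.54 ± 0.32 (n = 6), a log2 fold change of 0.18 (SE 0.23). The interval of the fold change ran from 0.805 to 1.59 (limma adjusted p = 0.713). Within this fit alone, an increase above 1.59-fold or a decrease beyond 1.24-fold lay outside it. Other settings bounded NdhS less closely. The interval of the log2 fold change ran from -0.78 to 1.14 with sets averaged and from -1.29 to 0.53 with array medians aligned. The transcript was the steadiest of the 5, with a range of 0.84 log2 units over the 12 samples against a median range of 2.50 for all tested probes.

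The difference in NdhS was not of the same sign in all sets. Recovered samples 1 and 2 lay below their controls by set mean, at a log2 difference of -0.17. The difference was 0.22 in samples 3 and 4 and 0.48 in samples 5 and 6, and 3 of 6 same-numbered pairs were higher. In recovered 5 and 6 the level was 2.53 and 2.66, against 2.11 in each of controls 5 and 6. The sign also turned with the scaling, since the log2 fold change was -0.38 (SE 0.42) with array medians aligned. With the deposited scaling kept the log2 fold change of NdhS was 0.17. The median of all tested probes was 0.47 on that scaling, and relative to it NdhS was at -0.30.

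NdhN had deposited intensities of 0.0803, 0.201 and 0.371 in the controls and of 0.163, 0.237 and 1.11 in the recovered samples. Its log2 intensity after normalisation was -3.46, -1.84 and -0.96 in the controls and -3.51, -1.65 and -0.05 in the recovered samples. The level followed the set far more than the treatment: samples 1 and 2 were lowest and samples 5 and 6 highest in both groups. The set means ran from -3.44 through -1.84 to -1.11 in the controls and from -3.13 through -1.65 to -0.51 in the recovered samples.

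Group means of NdhN were -2.13 ± 1.07 (SD, n = 6) and -1.76 ± 1.24 (n = 6), which gave a log2 fold change of 0.37 ± 0.61 (SE) at an adjusted p of 0.791. The interval of the fold change was wide, from 0.519 to 3.20. The log2 fold change was 0.022 without recovered 5, 0.099 without control 1, 0.11 without control 2 and 1.18 with array weights. Within each set the recovered mean was the higher, by 0.30, 0.19 and 0.61 log2 units. In 5 of 6 same-numbered pairs the recovered sample was higher, and pair 1 differed by -0.05. Even 6 of 6 pairs were higher for 8.66% of all tested probes. With the replicate number as a block the SE fell to 0.21 and NdhN still did not pass (limma adjusted p = 0.324). With sets averaged to 3 pairs and blocked the SE was 0.36 (limma adjusted p = 0.723). An exact two-sided permutation of signs over the 6 pairs gave p = 0.0625, where the smallest possible value was 0.03125. The adjusted p of this permutation over all tested probes was 0.237. That permutation takes the pairs as independent, which the likeness within sets puts in doubt.

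CRR41 had deposited intensities of 0.116, 0.424 and 0.629 in the controls and of 0.404, 0.669 and 0.769 in the recovered samples. Its log2 intensity was -2.55, -0.99 and -0.44 in the controls and -1.17, -0.86 and -0.72 in the recovered samples. Controls 3 and 4, at -2.55 and -2.42, were the lowest of all 12 samples, whereas controls 2 and 6 lay within the range of the recovered samples and controls 1 and 5 above it. The controls thus had an SD of 0.91 and the recovered samples one of 0.16.

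The log2 fold change of CRR41 was 0.47 (SE 0.37, 95% interval of the fold change 0.792 to 2.41, adjusted p = 0.539). It was large in 1 set. Samples 3 and 4 differed by 1.67 log2 units, or 3.19-fold, while samples 1 and 2 differed by -0.16 and samples 5 and 6 by -0.12. Without controls 3 and 4, a removal chosen after seeing the data, the log2 fold change was -0.10, and without samples 3 and 4 of both groups it was -0.14.

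**Figure D1:**
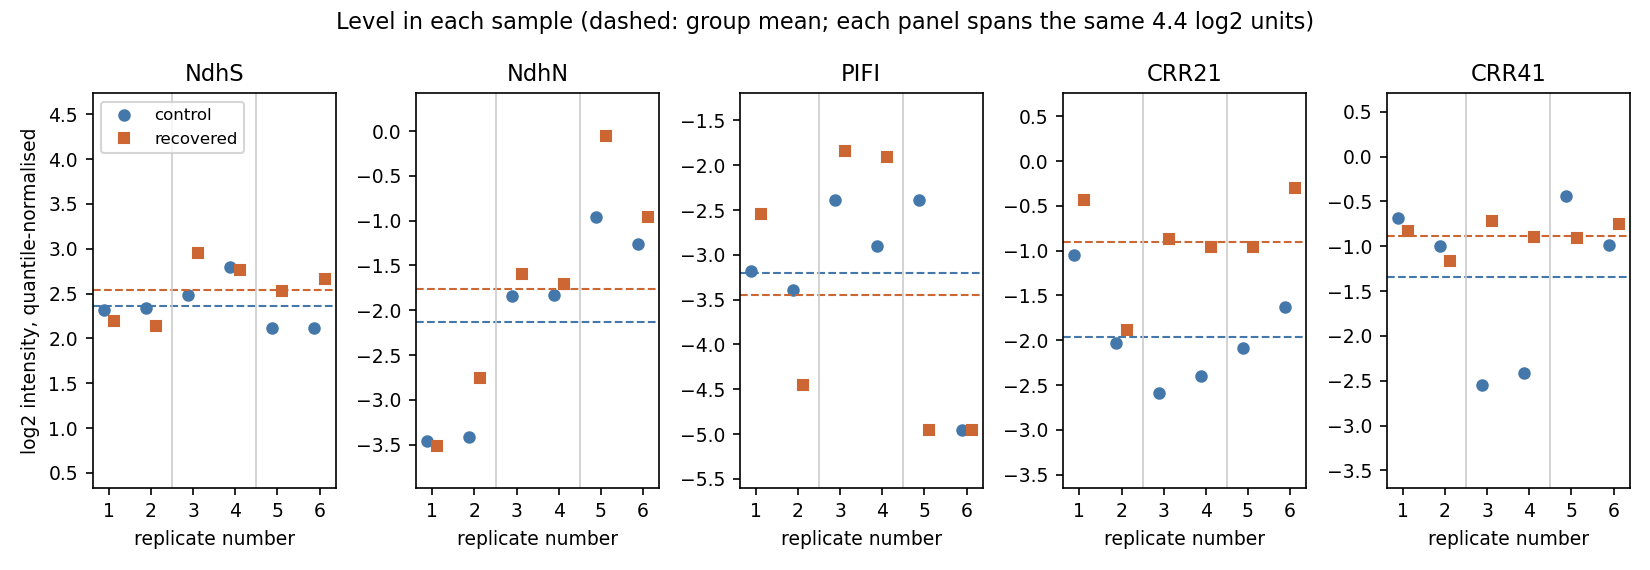
Quantile-normalised log2 intensity (vertical axis) of the 5 genes in each sample, by replicate number (horizontal axis), with circles for control and squares for recovered samples and dashed lines for group means. Grey lines separate the sets of neighbouring numbers. CRR21 lies above its same-numbered control in 6 of 6 pairs, NdhN steps up from samples 1 and 2 to samples 5 and 6 in both groups, and controls 3 and 4 stand low for CRR41.

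CRR21 had deposited intensities of 0.112, 0.188 and 0.477 in the controls and of 0.382, 0.551 and 0.965 in the recovered samples. Its log2 intensity was -2.59, -2.05 and -1.04 in the controls and -1.89, -0.92 and -0.30 in the recovered samples. Recovered 2, at -1.89, lay below control 1 at -1.04 and control 6 at -1.63. The other 5 recovered samples lay above every control, so the overlap of the groups rested on recovered 2. Over all tested probes the groups did not overlap for 4.75%.

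Means of CRR21 were -1.96 ± 0.56 (SD, n = 6) and -0.90 ± 0.56 (n = 6), a log2 fold change of 1.06 (SE 0.33). The unadjusted limma p of 0.00698 was under 0.05, as it was for 18.3% of all tested probes, and the adjusted p of 0.117 missed the threshold. An exact two-sided permutation of the 12 samples gave p = 0.0130, where the smallest possible value was 0.00216, and the adjusted p over all tested probes was 0.134. The recovered sample was the higher one in 6 of 6 same-numbered pairs, a count reached by 8.66% of all tested probes. The exact sign permutation over pairs gave its smallest possible p, 0.03125, but it takes the 6 pairs as independent, which the likeness within sets puts in doubt. With the replicate number as a block, a fit that called 2.68% of all tested probes, limma gave an adjusted p of 0.0636.

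The difference in CRR21 had the same sign in the 3 sets and differed in size. It was 0.37 log2 units in samples 1 and 2, 1.57 in samples 3 and 4 and 1.22 in samples 5 and 6. Pair 2 had the smallest difference at 0.14 and pair 3 the largest at 1.72. With sets averaged to 3 values per group the SE was 0.44 and the limma unadjusted p 0.0426 (adjusted p = 0.837), and 0% of all tested probes were called. With the set as a random block the interval of the log2 fold change ran from -0.24 to 2.36. Over the 27 alternatives that could move the estimate the log2 fold change ran from 0.79 to 1.60. Adjusted p-values over all alternatives ran from 0.0585 to 0.837. The 1.60 and the 0.0585 came from the deposited scaling, where CRR21 was at 1.12 relative to the median of all tested probes.

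**Figure D2:**
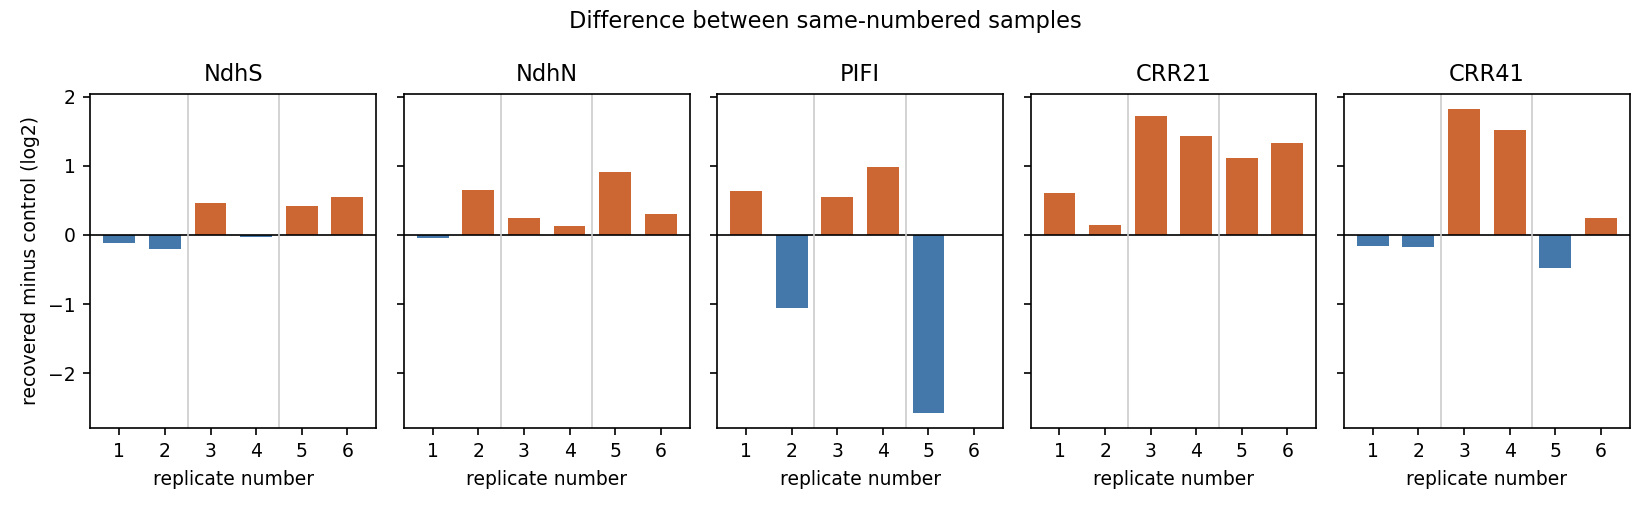
Recovered minus control log2 intensity (vertical axis) for each same-numbered pair (horizontal axis), 1 bar per pair, for the 5 genes. CRR21 is above 0 in 6 of 6 pairs, and CRR41 is large in pairs 3 and 4 at 1.83 and 1.52. PIFI runs from -2.57 in pair 5 to 0.98 in pair 4. Pair 6 of PIFI is at 0 because both samples lie at the floor after normalisation.

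PIFI lay near the floor, and control 6 and recovered 5 and 6 were at it. The deposited value was 0 in control 6 and recovered 5. In recovered 6 it was 0.0565, above the floor of 0.0322, and came to lie at the floor after normalisation. Deposited intensities of PIFI were 0, 0.0934 and 0.132 in the controls and 0, 0.134 and 0.290 in the recovered samples. The log2 intensity was -4.95, -3.04 and -2.39 in the controls and -4.95, -3.50 and -1.85 in the recovered samples. Recovered 3 and 4 were the highest of all samples at -1.85 and -1.91, and recovered 2 was also low at -4.46.

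The log2 fold change of PIFI was -0.24 (SE 0.66, 95% interval of the fold change 0.316 to 2.26, adjusted p = 0.881). The sets disagreed in sign, with -0.21 in samples 1 and 2, 0.77 in samples 3 and 4 and -1.28 in samples 5 and 6. The last of these is set by the floor, where a value has no order, and it rests on control 5 at -2.39. The log2 fold change was 0.36 with the deposited scaling kept, but relative to the median of all tested probes, at 0.47, it was -0.12. The sign turned to 0.06 without either recovered 5 or recovered 6. PIFI was not tested with the floor at the 20th percentile. The interval leaves a change of PIFI in either direction within wide limits.

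**Figure D3:**
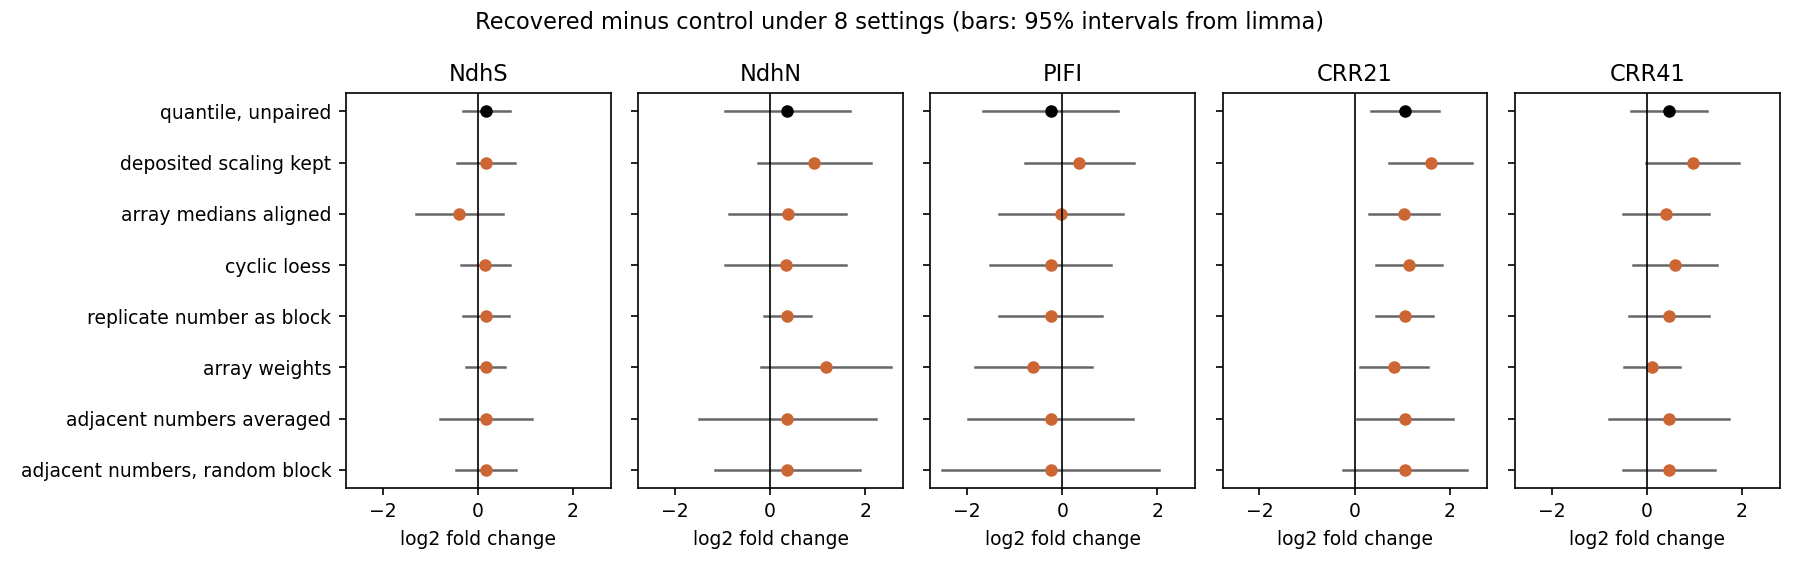
Log2 fold change, recovered minus control (horizontal axis), of the 5 genes under 8 settings of scaling, pairing and averaging (vertical axis), with 95% intervals from limma. The quantile-normalised unpaired fit is in black. CRR21 stays between 0.83 and 1.60 in these settings. NdhS changes sign with array medians aligned. PIFI does so with the deposited scaling, where the median of all tested probes is 0.47.

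The spread of each gene over the 12 samples was divided into shares of the sum of squares, as a description. Treatment took 51.8% of the spread of CRR21, where the median of all tested probes was 10.4% and 92.7% of probes had a smaller share. It took 13.3% for CRR41, 10.2% for NdhS, 2.91% for NdhN and 1.11% for PIFI. The set of replicate numbers took 90.9% of the spread of NdhN, a share that exceeded those of 99.1% of tested probes, against a median of 32.9%. Sets also took 59.1% for NdhS and 52.7% for PIFI, and 7.26% for CRR21. In CRR41 the largest share, 44.9%, was that by which the treatment difference varied between sets. The median of this share over all tested probes was 17.5%, and 83.3% of probes had a smaller one. The kinds of share have unequal degrees of freedom, the fewest for treatment. The largest share was thus treatment for CRR21, treatment by set for CRR41 and the set for the other 3 genes.

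**Figure D4:**
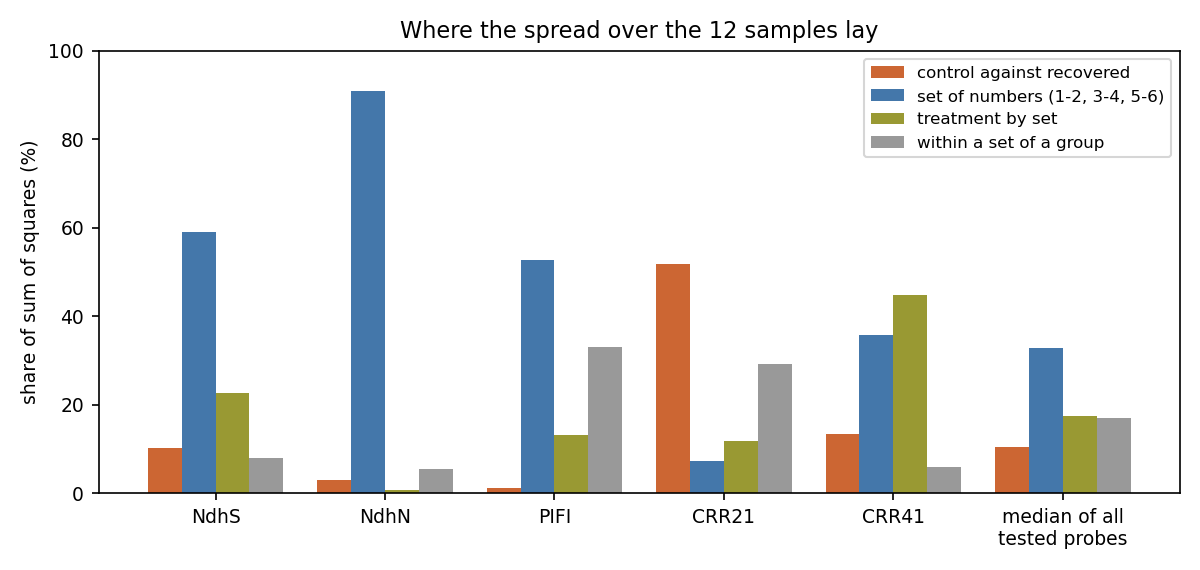
Share of the sum of squares over the 12 samples (vertical axis, percent) that lay between treatments, between sets of replicate numbers, in the treatment difference that varied by set, and within a set of a group, for the 5 genes and as the median of all tested probes. Treatment is the largest share for CRR21 at 51.8%, and the set is the largest for NdhN at 90.9%.

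Likeness between genes was measured as the root mean square difference of log2 intensities over the 12 samples, each gene centred on its own mean, where a smaller value is more alike. Among the 5 genes CRR21 and CRR41 were the closest pair at 0.58, and NdhN and PIFI the farthest apart at 1.79. For CRR41 the closest of 628 other tested probes with 1 gene were PSBW, a photosystem II subunit, at 0.31 and THIC, an enzyme of thiamine synthesis, at 0.32. For CRR21 they were AT1G18060 at 0.42 and AT1G12100 at 0.44, for NdhN AT5G59250 at 0.41 and AT1G53260 at 0.45, for PIFI AT2G38570 at 0.65 and AT5G66050 at 0.67, and for NdhS AT2G04700 at 0.21 and AT5G06790 at 0.23. The median over all these probes was 1.01 for CRR41, 1.08 for CRR21, 1.32 for NdhN, 1.40 for PIFI and 0.87 for NdhS. None of the closest genes was an NDH gene. Only 2 of 628 were named for each gene and few of the 628 serve the complex. Whether NDH genes vary together was thus not tested.

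Further genes of the pathway were taken from lists of NDH subunits, NDH assembly and ancillary factors, plastid RNA editing and processing factors, other genes of cyclic electron flow and chlororespiration, and photosystem I subunits. Of 31 subunits of the complex, 2 had a probe of their own, NdhS and NdhN, and the 11 plastid-encoded subunits had 0. Thus the level of ndhD, the plastid transcript that CRR21 acts on, was not analysed here. Among the 5 further list genes tested, 0 passed (limma), and 0 had an unadjusted p under 0.05. Over all tested probes these shares were 2.17% and 18.3%, so neither count is a result particular to these genes.

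Cpn60beta4, a chaperonin subunit needed to fold the plastid-encoded NdhH, had a log2 fold change of -0.17 (SE 0.44). OTP85, like CRR21 a pentatricopeptide repeat factor that edits ndhD, was at 0.12 (SE 0.55), and AT3G22690 of the editing list was at -0.04 (SE 0.56). NTRC, a plastid thioredoxin reductase, was at 0.06 (SE 0.40), and PSAN, a subunit of photosystem I, was at 0.03 (SE 0.28). The sign of Cpn60beta4 and AT3G22690 turned with the deposited scaling kept, where each lay only 0.06 above the median of all tested probes, at 0.47. That of NTRC turned with array medians aligned, that of PSAN with both scalings, and that of OTP85 without control 1. None of the 5 thus has a settled direction.

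Of 16 markers of leaf mesophyll, guard cells, phloem, epidermis, root and flower, 0 had a probe of their own, so the tissue could not be checked and the share of cell types was not tested. In bulk RNA, fewer cells with a transcript and less transcript per cell cannot be told apart.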

How the data were processed

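The authors deposited 1 intensity per probe and sample on a linear scale. How it was background-corrected, scaled and averaged over spots is not given in the sources used here, and its distance from the array background is unknown. The number of arrays limits the precision. Unused per-sample columns numbered 0.

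Because the samples' log2 medians differed by up to 1.23, intensities were quantile-normalised. A floor of 0.0322, the 5th percentile of positive deposited values, replaced lower values before log2 was taken. Probes with at least 6 of 12 deposited values above the floor were tested, which kept 3177 probes and left out 262. Recovered minus control was fitted with lmFit and eBayes of limma 3.58.1 (R 4.3.3), two-sided. Benjamini-Hochberg adjustment covered all tested probes, with a threshold of 0.05. The procedure was tested on simulated data in which all samples varied independently. That simulation held no likeness within sets, so it cannot show whether the p-values hold for these samples. Single genes were also tested by exact permutation, over 924 arrangements of the group labels and over 64 sign changes of the 6 pairs.

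Groups and replicate numbers come from the sample titles. After group means were removed, control and recovered samples with the same number correlated at 0.111 to 0.487 over tested probes, and 12 of 12 samples matched their own number best, so numbers were treated as pairs. This pairing rests on the data and on the titles' numbers, and the main fit is unpaired.

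Genes were named from the platform's annotation, through gene IDs matched to RefSeq TAIR10.1. The build behind the array is not given, so no coordinates are printed, and no sequence was used here. Probes may also detect near-identical relatives. Named are the 5 genes, every list gene with a probe of its own and the 2 tested genes most like each of the 5. The genes and lists were chosen with earlier results of these data known. Alternatives covered the scaling, the floor, the filter, the variance model, pairing, averaging of neighbouring numbers and left-out samples.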

Additional observations from a re-analysis of the deposited data

Results flagged for a closer look

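In 2 of 20 groups of 6 values, 1 sample was separated from its neighbour by a gap that took up most of the whole range (0.667 and 0.693 of it), and about 1 such group in 20 arises by chance. For the chaperonin gene Cpn60beta4 this was recovered 4, with a log2 intensity of -4.66, while the next lowest recovered sample had -2.65. For the editing factor gene OTP85 it was recovered 1, at the floor of -4.95, while the next lowest recovered sample had -2.42. Of NdhS, NdhN, CRR41, CRR21 and PIFI, 0 had a sample beyond that cut, and controls 3 and 4 of CRR41 were low together. Some samples stood apart by a gap under the cut. These were control 6 of PIFI (-4.95, next lowest control -3.40) and recovered 2 of CRR21 (-1.89, next lowest recovered sample -0.96). Recovered 2 of CRR41 was another (-1.17, next lowest recovered sample -0.91).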

How the results depend on the processing

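None of NdhS, NdhN, CRR41, CRR21 and PIFI passed in any of the 35 alternatives run (34 for PIFI), of which the exact sign permutation over pairs, with a smallest possible p of 0.03125, called 0 of 3177 probes (lowest adjusted p 0.169, 589 with an unadjusted p under 0.05). In 8 of them the estimate is fixed by construction. CRR21 and NdhN kept their sign in the other 27, NdhN between 0.022 without recovered 5 and 1.18 with array weights. Log2 fold changes that turned were PIFI at 0.36, Cpn60beta4 at 0.53, AT3G22690 at 0.53 and PSAN at -0.073 with the deposited scaling. That scaling put the median of all tested probes at 0.47, and relative to it PIFI was at -0.12. Aligning array medians put NdhS at -0.38, NTRC at -0.17, PSAN at -0.63 and AT3G22690 at 0.048. NTRC was at -0.022 and PSAN at -0.072 with cyclic loess, Cpn60beta4 at 0.085 with the higher floor, and PSAN at -0.23 and AT3G22690 at 0.40 with array weights. Without samples 1 and 2 NTRC was at -0.016 and AT3G22690 at 0.21. Without samples 3 and 4 CRR41 was at -0.14, Cpn60beta4 at 0.27, PSAN at -0.48, OTP85 at -0.19 and AT3G22690 at 0.30. Without samples 5 and 6 PIFI was at 0.28, NTRC at -0.68 and OTP85 at -0.092. Without controls 3 and 4, the alternative added after seeing the data, PIFI was at 0.036, CRR41 at -0.10, PSAN at -0.19 and AT3G22690 at 0.45. Leaving out 1 sample, or both of 1 number, gave PIFI -0.59 to 0.22, Cpn60beta4 -0.37 to 0.23, OTP85 -0.095 to 0.64, AT3G22690 -0.50 to 0.25, NTRC -0.30 to 0.42 and PSAN -0.20 to 0.17. The cause was not tested.

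Limma called 69 probes, 28 higher and 41 lower (40.6% higher). The count was 35 with the deposited scaling kept (29 and 6, 82.9% higher), 121 with the higher floor, 103 with no filter on dim probes, 239 with array weights, 109 with a variance trend and robust fitting and 13 at an adjusted p under 0.01. With array medians aligned 15 probes were higher and 53 lower (22.1% higher). It was 0 with adjacent numbers averaged, with or without a replicate block, where 164 and 293 probes had an unadjusted p under 0.05, and 1 with them as a random block. It was 15, 331 and 2 without samples 1 and 2, 3 and 4, or 5 and 6, and 10 to 68 without 1 sample or 1 number. An exact permutation over the 12 samples gave 151 (58 and 93). The replicate block gave 85 and changed no call named here. Intensities near the floor limit what can be said of PIFI.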
